A study of Mus musculus with 27 samples.

Results

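The widest domains of serine 2-phosphorylated RNA polymerase II (Ser2P Pol II) were described in mouse embryonic stem cells carrying the control short hairpin RNA. Members were chosen by width alone: every peak of the Ser2P list shCtl-1 whose end minus start was at or above the 90th percentile of that list, 4514 bp. The rule took 388 of 3878 peaks, called wide domains here, and left 3490 other peaks for comparison. Ser2P Pol II was mapped by chromatin immunoprecipitation sequencing (ChIP-seq) with 1 antibody in 4 libraries, shCtl-1 and shCtl-2 with the control hairpin and shWDR43-1 and shWDR43-2 with a hairpin against WDR43, a WD-repeat protein of the nucleolus. Hypophosphorylated (hypoP, antibody 8WG16) and serine 5-phosphorylated (Ser5P) Pol II were mapped in libraries of the same 4 names, and RNA was sequenced in 2 shCtl and 2 shWDR43 libraries. Tagged WDR43 was mapped with a FLAG antibody in 5 libraries: cells with Fbio-tagged WDR43 under DMSO, DRB or ActD, FB-tagged cells, and a cFB knock-in (KI). All cells were grown in serum with leukemia inhibitory factor, and the cells mapped for shCtl and shWDR43 RNA are labelled wildtype. Whether the ChIP numbers 1 and 2 mark replicates or hairpins was left unstated, and differences between them may be technical, while the RNA table names 2 biological replicates per group.

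Pol II carries a long tail of repeats whose phosphorylation changes along a gene. Serine 5 is phosphorylated near the start as transcription begins, and serine 2 during elongation, so Ser2P typically accumulates over gene bodies and towards and beyond the 3′ end, where the transcript is cleaved and polyadenylated and the polymerase goes on for some distance before it is released. DRB inhibits the kinase P-TEFb, which phosphorylates serine 2 and releases paused Pol II, and ActD (actinomycin D) intercalates into DNA and blocks transcription.

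The wide domains lay mainly at the far ends of genes, so the starts of 4 genes at them are shown, the sites where WDR43 peaks of the same genes were looked for. Rps28 and Rpl27a encode ribosomal proteins and were the first of their list by domain width with a single promoter entry, and Utf1 and Tdgf1 were the first of the pluripotency list by the same rule. Each sequence holds the 250 bases before the start, 5′ to 3′ on the gene's strand, from RefSeq on GRCm38.p6, a later build than the mm9 of the peak lists. Capitals mark 3 motifs, each searched on both strands. The ETS factor motif searched was CCGGAAG. The Sp1 GC box was read as GGGCGG, and the TATA box as TATAAA, which none of these 4 stretches held.
Rps28 (chr17:33824563-33824812, minus strand): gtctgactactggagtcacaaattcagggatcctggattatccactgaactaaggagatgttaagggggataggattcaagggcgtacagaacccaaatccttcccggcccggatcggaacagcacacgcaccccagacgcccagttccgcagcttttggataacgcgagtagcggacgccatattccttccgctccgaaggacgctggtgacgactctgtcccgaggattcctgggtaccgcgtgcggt
Rpl27a (chr7:109518945-109519194, plus strand): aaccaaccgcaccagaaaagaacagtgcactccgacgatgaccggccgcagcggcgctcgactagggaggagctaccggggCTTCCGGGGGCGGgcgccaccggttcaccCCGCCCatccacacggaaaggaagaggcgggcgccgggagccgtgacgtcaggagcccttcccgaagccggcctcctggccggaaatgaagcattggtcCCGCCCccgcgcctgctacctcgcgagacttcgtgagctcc
Utf1 (chr7:139943606-139943855, plus strand): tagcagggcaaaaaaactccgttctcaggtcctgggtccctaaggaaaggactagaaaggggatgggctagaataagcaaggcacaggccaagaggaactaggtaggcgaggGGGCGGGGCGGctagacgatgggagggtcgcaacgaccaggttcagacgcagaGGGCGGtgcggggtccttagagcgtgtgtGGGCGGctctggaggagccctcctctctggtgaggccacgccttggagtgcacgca
Tdgf1 (chr9:110946159-110946408, minus strand): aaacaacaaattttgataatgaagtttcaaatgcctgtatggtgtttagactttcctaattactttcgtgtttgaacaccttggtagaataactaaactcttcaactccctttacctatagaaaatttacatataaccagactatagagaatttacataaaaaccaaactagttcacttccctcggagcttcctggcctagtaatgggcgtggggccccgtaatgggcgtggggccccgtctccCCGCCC
The ETS match and the first GC box of Rpl27a abut, and the first 2 GC boxes of Utf1 overlap by a base. CCGGAAG stood in 15.6% of 514 promoters of coding genes at wide domains, 14.6% of 2422 promoters of coding genes at the other peaks only, and 6.91% of all 32851 promoters in the table. GGGCGG stood in 59.5%, 59.1% and 32.7% of the same sets, and TATAAA in 5.64%, 6.32% and 12.4%. The median promoter held 17, 16 and 6 CG dinucleotides. By these counts the promoters of genes at wide domains were close to those of genes at narrower Ser2P peaks. A peak of WDR43 within 1 kb of the start, as placed on mm9, was listed under DMSO at Rps28, Rpl27a and Utf1 and not at Tdgf1. None of these 4 starts had a peak under DRB or ActD, and all 4 had one in the FB list.

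Several features of the lists touch what follows. No peak in any of the 17 lists was wider than 9216 bp, and the widest Ser2P peaks measured 8064 to 8426 bp. Very abundant genes could lack a Ser2P peak: of coding loci with a mean shCtl level of at least 200 FPKM (an RNA level per length of transcript and per sequenced fragments), 75.0% of the shortest 116, 62.9% of the middle 116 and 41.0% of the longest 117 overlapped a shCtl-1 peak. Eef1a1 (5667 FPKM in shCtl) had no peak in shCtl-1, shCtl-2 or shWDR43-1 and a 6889 bp peak in shWDR43-2, and Gapdh (3134 FPKM) had only a 7451 bp peak in shWDR43-1. Both were chosen after their values were seen. Absence from a list is therefore given as not listed, and its cause was not tested. Stem cell markers were well expressed in all 4 RNA libraries. All 8, among them Pou5f1 and Sox2, stood at 109 FPKM or more in both shCtl libraries and at 70.3 or more in shWDR43. Their sum was lower after knockdown, at 4968 and 5075 FPKM in shCtl against 2705 and 2535 in shWDR43. Fibroblast markers summed to 30.0 and 41.5 FPKM in shCtl and 36.8 and 63.7 in shWDR43, which overlap. Summed markers of trophoblast (0.7 and 1.2 against 3.1 and 3.2) and primitive endoderm (2.7 and 2.8 against 4.2 and 4.2) were higher in both shWDR43 libraries. Those of neuroectoderm (9.1 and 7.7 against 6.2 and 6.3) and mesoderm (3.0 and 3.0 against 1.9 and 1.7) were lower. Single markers within these sums differed. Krt7 of trophoblast went from 0.2 and 0.5 to 2.1 and 2.4 FPKM, while Cdx2 overlapped (0.1 and 0.3 against 0.3 and 0.1). In primitive endoderm Sox7 was lower (0.8 and 1.2 against 0.3 and 0.4), and Gata4, Gata6 and Sox17 were higher. Nes of neuroectoderm and T of mesoderm overlapped between the groups. Of the fibroblast markers, Thy1 was lower (3.6 and 5.2 against 1 and 1.2). Pdgfrb (0.8 and 1.1 against 1.2 and 2.1) and Col1a2 (12.9 and 16.1 against 16.4 and 28.8) were higher, and Col1a1, Col3a1 and Postn overlapped. The part of these cell types in the RNA results was not tested.

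Wide domains sat across the 3′ ends of expressed genes and ran past them. Their widths were 4517 to 8426 bp with a median of 5397, against a median of 1723 bp in the other peaks, and they held 24.1% of the bases of the shCtl-1 list. A listed locus lay under 345 of 388 (88.9%) and a protein-coding one under 309 (79.6%), against 66.4% and 58.3% of the other peaks. Strand came from RefSeq for 79.4% of the coding loci, and 267 wide domains overlapped a locus with a strand. Of these, 235 (88.0%, exact 95% interval 83.5 to 91.7) held the 3′ end of the locus, against 46.2% (43.8 to 48.6) of 1701 other peaks. The 3′ end alone was held by 207, the whole locus by 28, the 5′ end alone by 20, and 12 lay inside the locus. The 5′ end lay in 18.0% of wide domains and in 35.6% of the other peaks. A wider region reaches an end more often by its length. The 5′ share was not particular to the widest group: over 10 equal groups by width it went from 26.0% in the narrowest to 60.4% in the third, and was 16.7%, 17.3% and 18.0% in the last 3. Over those 10 groups the share with the 3′ end inside went from 6.25% in the narrowest to 88.0% in the widest.

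Where the 3′ end lay inside, a wide domain began a median of 2665 bp before it and ended 2957 bp past it, with the middle of the values between 2007 and 3986 bp past the end. The other peaks with a 3′ end inside reached 1597 bp past it. The longest extension among wide domains was 6855 bp past the end of Rps24. The loci under wide domains had a median level of 30.7 FPKM in shCtl, against 10.9 under the other peaks. Their median length was 11772 bp, against 15293 bp.

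**Figure D1:**
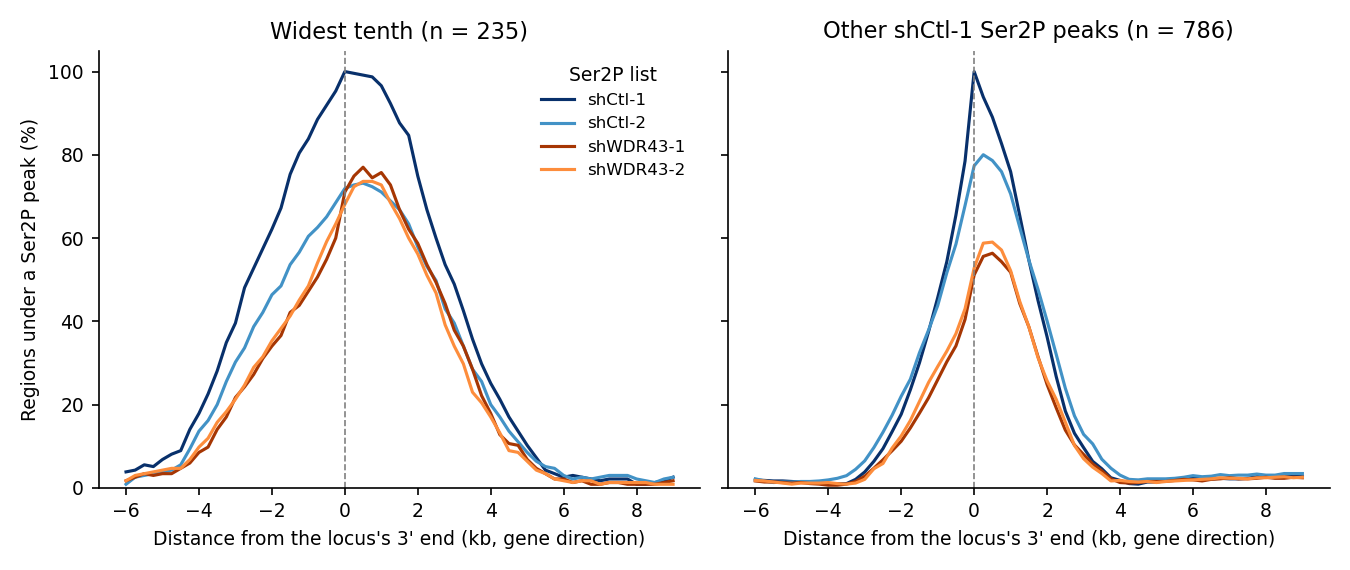
Share of regions under a Ser2P peak of each list (vertical axis, percent) against distance from the 3′ end of the locus in the direction of the gene (horizontal axis, kb), for 235 wide domains (left) and 786 other shCtl-1 peaks (right) with a 3′ end inside. Lines are the 4 Ser2P lists, and shCtl-1 is at 100% at 0 because it chose the regions. In wide domains both shWDR43 lines lie below shCtl-2 from 4.5 kb to 0 kb before the end, with no such order farther upstream, and within 5 percentage points of it from 0 to 2 kb past the end.

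The widest members mixed gene-dense clusters, ribosomal protein genes and long noncoding RNA. The widest domain, 8426 bp on chromosome 13 (19611873 to 19620298, mm9), overlapped no listed locus, and neither did the third, 8098 bp on chromosome 10 (27537878 to 27545975), which held 12 WDR43 peaks of the FB list. The second, 8152 bp on chromosome 19 (5793547 to 5801698), covered Malat1, an abundant nuclear long noncoding RNA, and was 8378, 7100 and 8064 bp wide in shCtl-2, shWDR43-1 and shWDR43-2. A domain of 8072 bp on chromosome 17 (33953883 to 33961954) covered the 3′ end of Kank3 and also Rps28. At St5 an 8056 bp domain on chromosome 7 (116663071 to 116671126) held Rpl27a too. A 7861 bp domain on chromosome 7 (13614154 to 13622014) held Chmp2a and Trim28, a transcriptional corepressor that silences endogenous retroviruses. Rps18, Rps15a, Rpl5, Rpl21 and Rps24 each led a domain among the 15 widest, of 7789, 7644, 7532, 7468 and 7442 bp. The Rps24 domain (chromosome 14, 25314782 to 25322223) had 587 bp before the 3′ end and all the rest beyond it.

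At the threshold, the 3 members just inside were 4524 bp at Nfic, 4523 bp at Rpl22 and 4517 bp at XLOC_010154, an unnamed transcript of the deposited table. The 3 peaks just outside were 4513 bp at Pusl1, 4509 bp at Cdc42ep4 and 4508 bp at Mfge8. In shCtl-2, Nfic measured 4909 bp, XLOC_010154 2161 bp and Rpl22 had no peak, while Pusl1, Cdc42ep4 and Mfge8 measured 5140, 4578 and 5015 bp.

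Wide domains were mostly listed in the other libraries. A shCtl-2 peak overlapped 300 of 388 (77.3%, exact interval 72.8 to 81.4), a shWDR43-1 peak 335 (86.3%, 82.5 to 89.6) and a shWDR43-2 peak 331 (85.3%, 81.4 to 88.7). Among the other peaks the shares were 74.5%, 59.7% and 60.7%. The order of the lists thus turned round between narrow and wide regions: other peaks were listed most often in shCtl-2, and wide domains least often. No test was run, since with 1 control list that the rule did not use and 2 shWDR43 lists an exact permutation test cannot go below 0.333. When at least 50% of the domain had to be covered, the shares were 77.1%, 75.3% and 76.8%, so the higher share in shWDR43 was gone.

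**Figure D2:**
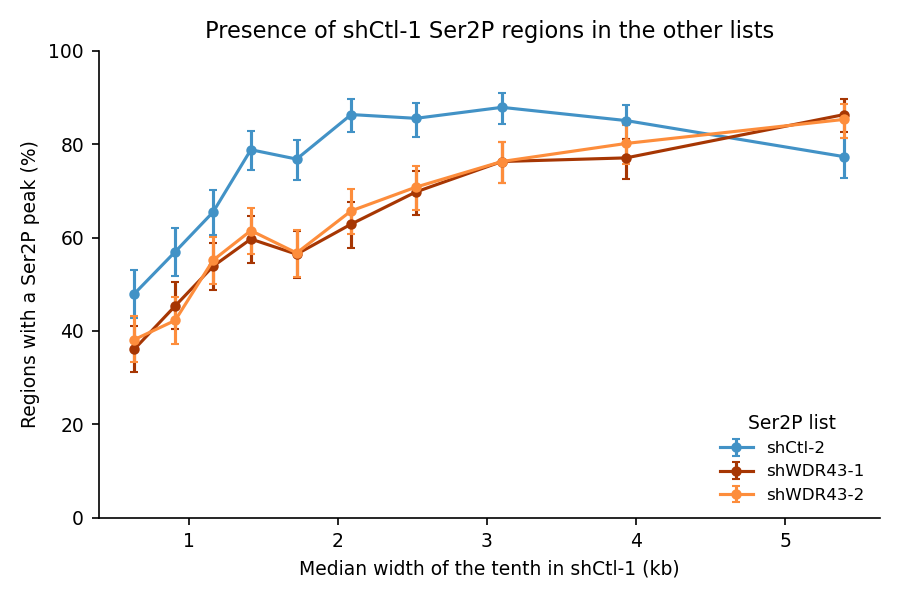
Share of shCtl-1 Ser2P regions with a peak in each other Ser2P list (vertical axis, percent, bars are exact 95% intervals covering counting error only) against the median width of 10 equal groups of regions (horizontal axis, kb). The shCtl-2 share falls from 87.9% in the eighth group to 77.3% in the widest, while both shWDR43 shares are highest in the widest group, at 86.3% and 85.3%.

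Within the wide domains the shCtl-2 share went down with width. Over 4 groups of 97 from narrow to wide it was 88.7%, 83.5%, 75.3% and 61.9%, while the shWDR43-1 share was 87.6%, 82.5%, 86.6% and 88.7% and the shWDR43-2 share 89.7%, 84.5%, 83.5% and 83.5%. The same reading was made with the widest peaks of each other list. Domains chosen in shCtl-2 were listed in shCtl-1 at 83.6% and in the shWDR43 lists at 85.4% and 84.5%. Domains chosen in shWDR43-1 were listed at 85.0% in shWDR43-2, 72.2% in shCtl-1 and 65.7% in shCtl-2, and those chosen in shWDR43-2 at 88.0%, 72.4% and 67.2%. In the widest 88 domains of shWDR43-1, only 47.7% had a shCtl-2 peak and 53.4% a shCtl-1 peak. In each reading the shCtl lists lacked more of the chosen domains than the shWDR43 lists, though by little for domains chosen in shCtl-2. Median widths over whole lists were 1919 and 2018 bp in shCtl and 1660 and 1683 bp in shWDR43. A fall with width was not seen in every control list. Over 4 groups of 108 chosen in shCtl-2, the shCtl-1 share was 83.3%, 87.0%, 80.6% and 83.3%. Nor was it limited to control lists, as 75.0% of the widest 88 of shWDR43-1 had a shWDR43-2 peak. The part of the width limit in this was not tested.

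All 3 other lists held 256 wide domains (66.0%), 53 were in both shWDR43 lists but not in shCtl-2, 13 only in shCtl-2, and 18 in none. The 53 absent from shCtl-2 alone were wide in shCtl-1 (median 6073 bp) and measured 4911 and 5046 bp in shWDR43, at loci with a median of 30.9 FPKM. They included the domains of Nanog and of Pou5f1 with Tcf19, both described below. Domains in none of the other lists were of lower score, the authors' own value per peak, with a median of 58.0 against 113 for those in every list.

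The 31 domains with no peak in either shWDR43 list were led by Tbc1d8, a gene of a Rab-regulating protein family, whose 7940 bp domain (chromosome 1, 39426434 to 39434373) was in shCtl-1 alone. Scd2, a fatty acid desaturase, came next, with 6571 bp in shCtl-1 and 6875 bp in shCtl-2. The domain past the 3′ end of Utf1, a stem cell chromatin factor, was 6526 and 6283 bp and overlapped the noncoding row AK078239. Those at Cryba1 (6201 bp) and Pam16 (6186 bp) were in shCtl-1 alone.

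Where a wide domain was listed everywhere, it was narrower after WDR43 knockdown. Over the 256 such domains the median width was 5265 bp in shCtl-1, which chose them, 5537 bp in shCtl-2, 4185 bp in shWDR43-1 and 4300 bp in shWDR43-2. Both shWDR43 peaks were narrower than the shCtl-2 peak at 211 of 256 (82.4%) and both wider at 11. The median ratios to shCtl-2 were 0.780 and 0.794. The other peaks listed everywhere (n = 1620) shared the direction, with ratios of 0.811 and 0.816 and both narrower at 69.1%. A choice made in a control list favours regions that are wide in control cells, so the domains chosen in shWDR43-1 were read the same way. The 353 domains had a median of 5068 bp there. Peaks over them measured 4785 bp in shWDR43-2 (300 listed), 5175 bp in shCtl-1 (255) and 5619 bp in shCtl-2 (232). These medians cover different domains, so they do not settle the effect of the choice. In the widest 88 they were 6560.5 bp in shWDR43-1, 6084.5 bp in shWDR43-2, 6332 bp in shCtl-1 and 6681.5 bp in shCtl-2. Regions with 1 peak in each list, chosen without regard to width (n = 1858), had medians of 2401 and 2755 bp in shCtl, against 2016 and 2043 bp after knockdown. No test was made over 1 control list and 2 shWDR43 lists, and the unknown ChIP depth, which can move called widths, cannot be told apart from the groups.

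**Figure D3:**
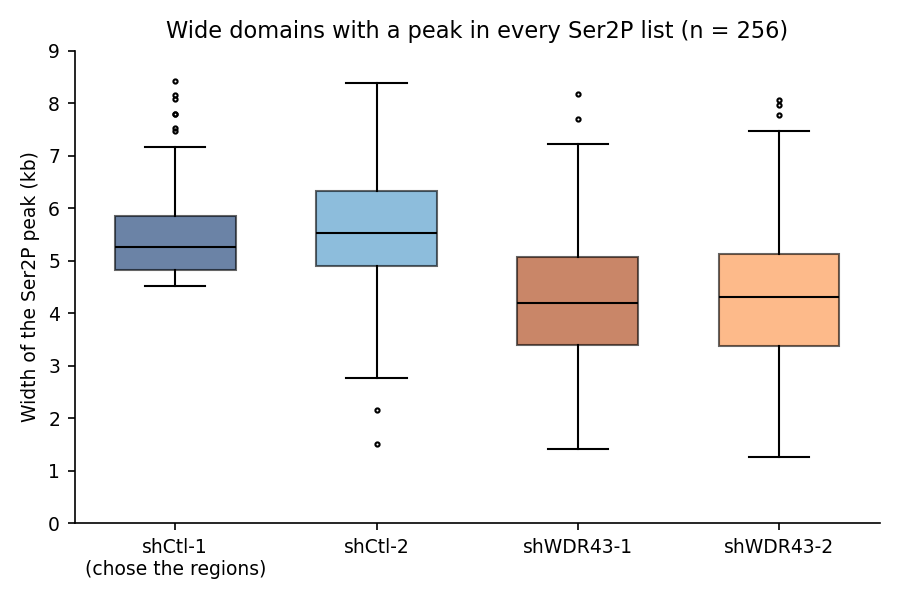
Width of the overlapping Ser2P peak (vertical axis, kb) in each of the 4 Ser2P lists for the 256 wide domains listed in all of them. Boxes show the middle of the values with the median as a line, whiskers reach to 1.5 times the box height and points lie beyond. Medians are 5265, 5537, 4185 and 4300 bp, and the shCtl-1 values are bounded below by the rule.

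The narrowing was larger on the side of the gene body than past its end. In 149 wide domains with the 3′ end inside and a peak in every list, the upstream edge lay a median of 2562 and 2677 bp before the 3′ end in shCtl-1 and shCtl-2, and 1399 and 1441 bp before it in the shWDR43 lists. The downstream edge lay 2918 and 3046 bp past it in shCtl, and 2588 and 2557 bp in shWDR43. The median difference per domain from shCtl-2 was -767 and -680 bp upstream and -254 and -314 bp downstream. Both shWDR43 edges were drawn in at 114 of 149 domains (76.5%) upstream and at 97 (65.1%) downstream. Over all 235 domains with a 3′ end, a point 1 kb before the end was under a peak in 60.4% in shCtl-2 and in 47.2% and 48.5% in shWDR43, and a point 1 kb past it in 71.1%, 75.7% and 72.8%. In the other peaks the edges differed by -291 and -287 bp upstream and by -201 and -219 bp downstream.

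Single domains showed this to different degrees, and the shCtl-2 width is the control value to read, since the rule used shCtl-1. At Ldha, lactate dehydrogenase A, the domain (chromosome 7, 54108470 to 54113280) was 4811 and 4825 bp in shCtl and 1616 and 3057 bp in shWDR43. At Aldoa, aldolase A, its widths were 5111 and 5172 bp against 3298 and 3963 bp. Both shWDR43 widths were below the shCtl-2 width at each of these glycolytic genes. At Fgf4, a growth factor secreted by stem cells, the domain measured 5068 and 5378 bp against 3677 and 4032 bp. At Hmgb1, a DNA-bending chromatin protein, they were 5357 and 5593 bp against 4162 and 4297 bp. Other domains were as wide or wider in shWDR43: the one at Fpgs and Eng was 5675 and 6061 bp in shCtl and 6195 and 6170 bp in shWDR43. At Tet1, a methylcytosine dioxygenase, it was 5806 bp in shCtl-1, not listed in shCtl-2, and 6602 and 5973 bp in shWDR43. The Nanog domain (chromosome 6, 122662349 to 122669006) was 6658 bp in shCtl-1, not listed in shCtl-2, and 3632 and 3941 bp in shWDR43. The domain over Tcf19 next to Pou5f1 (chromosome 17, 35647367 to 35654364) was 6998 bp in shCtl-1, not listed in shCtl-2, and 6408 and 6401 bp in shWDR43.

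WDR43 peaks covered few of the bases in wide domains and were common at the starts of the same genes. A DMSO peak of WDR43 overlapped 131 of 388 wide domains (33.8%, exact interval 29.1 to 38.7), against 36.8% of the other peaks, although wide domains are longer. The mix of places differed: 32.6% of the other peaks with a strand lay at a 5′ end alone, where 75.5% held a DMSO peak, against 7.49% of wide domains. Per kb there were 0.0749 peaks in wide domains and 0.233 in the other peaks, and DMSO peaks covered 3.08% against 8.52% of the bases. Under DRB 23 wide domains (5.93%) held a peak and under ActD 1 (0.258%). The FB list reached 47.9% and the KI list 32.0%. These are 1 list per condition and were not tested, and the DMSO, DRB and ActD lists as a whole held 31189, 4426 and 407 peaks. The 1 domain with an ActD peak was the 6267 bp domain of Rn45s, the ribosomal RNA precursor (chromosome 17, 39979599 to 39985865), which had a peak in all 17 lists and the highest Ser2P score of the wide domains (1924). Copies of this locus are many and near-identical, so its reads are uncertain.

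Of the 162 DMSO peaks inside wide domains, 71 (43.8%) lay within 1 kb of a gene start and 36 (22.2%) within 1 kb of a 3′ end. The same shares were not taken over the whole DMSO list, so neither can be read as high or low. For the 207 genes with a wide domain at the 3′ end only, 154 (74.4%, interval 67.9 to 80.2) had a DMSO peak within 1 kb of their start and 25 (12.1%, 7.97 to 17.3) within 1 kb of their 3′ end. The 735 genes with another Ser2P peak at the 3′ end stood at 69.8% and 14.1%. Over all 8635 tested coding loci with a strand the shares were 69.7% and 6.69%, and over the 1890 in the highest of 5 equal bins of expression 78.0% and 7.41%. Start peaks were thus about as common at these genes as at other expressed genes. Place by place, a DMSO peak lay in 27.5% of wide domains at the 3′ end only, against 20.7% of other peaks there, and in 23 of 28 (82.1%) of those over a whole locus, against 72.5%. These shares are not per kb, and wide domains are longer. Within 1 kb of the 3′ end the order was the other way, at 12.1% and 14.1%. At the 5′ end only the shares were 70.0% of 20 and 75.5% of 555, and inside the locus 25.0% of 12 and 38.3% of 360. The 5 widest domains without a DMSO peak were the pair with no listed locus, Malat1, St5 and Tbc1d8, and of these the Tbc1d8 domain had no peak in any of the 5 WDR43 lists.

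Ser5P peaks appeared in wide domains after WDR43 knockdown. In shCtl they overlapped 20 (5.15%) and 22 (5.67%) wide domains, and in shWDR43 109 (28.1%) and 128 (33.0%). The groups did not overlap: the mean rose from 5.41% ± 0.364 to 30.5% ± 3.46 (SD, n = 2 lists each), 5.64-fold, with an exact permutation p of 0.333, the smallest that 2 against 2 lists can give. In the other peaks the shares were 10.2% and 11.3% against 22.3% and 23.3%, 2.12-fold. The bases of wide domains under Ser5P peaks went from 1.69% and 1.55% to 15.1% and 16.9%. The Ser5P lists as a whole held 1879 and 2520 peaks in shCtl and 6535 and 7589 in shWDR43, so the part of overall peak number in these shares was not tested.

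These Ser5P peaks lay at the 3′ end as well as at starts. For the 207 genes with a wide domain at the 3′ end only, a Ser5P peak lay within 1 kb of that end at 3 (1.45%) and 4 (1.93%) in the shCtl lists, against 42 (20.3%) and 49 (23.7%) after knockdown. Genes with another Ser2P peak at the 3′ end went from 0.544% and 1.22% to 9.93% and 10.9%, and all tested coding loci from 0.753% and 0.961% to 3.97% and 4.23%. The most expressed bin of coding loci went from 1.11% and 1.16% to 8.41% and 8.84%. At the starts of the same 207 genes 12.1% and 15.0% had one in shCtl, and 37.2% and 45.4% after knockdown, against 14.2% and 17.2% and then 41.4% and 47.9% at the starts of the most expressed bin of coding loci. HypoP peaks overlapped 38.4% and 38.9% of wide domains in shCtl and 46.9% and 42.5% in shWDR43 (exact permutation p = 0.333), and covered 17.2%, 18.0%, 23.7% and 17.9% of the bases. The other peaks moved alike, from 42.3% and 42.8% to 49.4% and 45.4%. The hypoP lists as a whole held 19542 and 19561 peaks in shCtl and 31473 and 24485 in shWDR43, and the part of this in the shares was not tested.

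**Figure D4:**
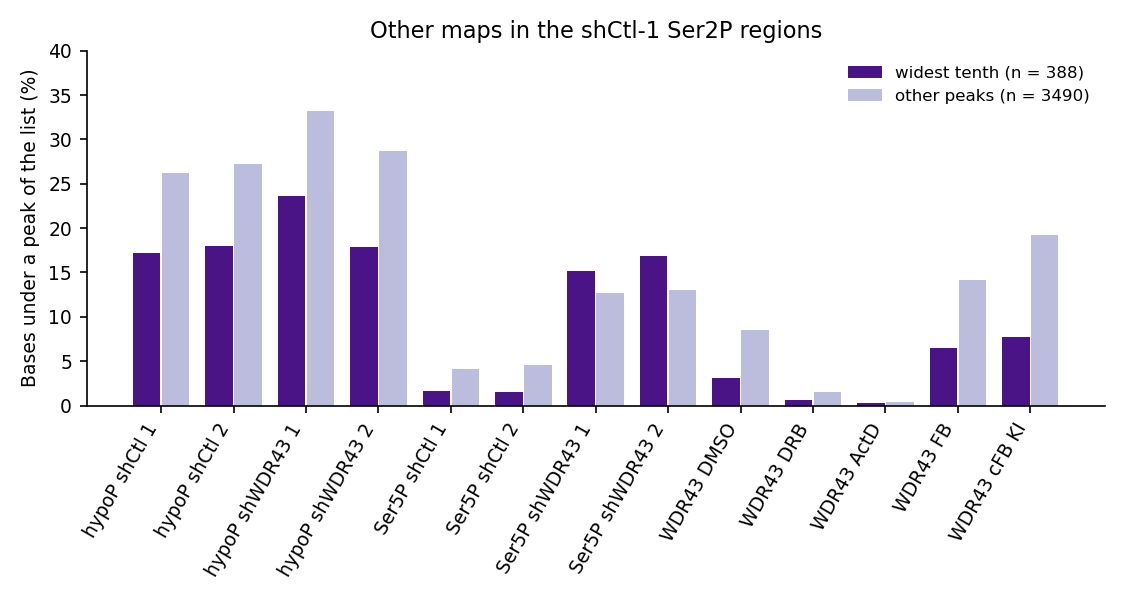
Share of bases under a peak of each list (vertical axis, percent, bars from 0) in the 388 wide domains (dark) and the 3490 other shCtl-1 Ser2P peaks (light), for the 4 hypoP, 4 Ser5P and 5 WDR43 lists along the horizontal axis. Each bar is 1 list. Ser5P rises from 1.69% and 1.55% in shCtl to 15.1% and 16.9% in shWDR43 in wide domains, and every WDR43 list covers a smaller share of wide domains than of the other peaks.

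RNA of genes at wide domains was mostly lower after WDR43 knockdown, as was RNA of abundant genes in general. In bulk RNA, a change within each cell and a change in the mix of cells cannot be told apart. Wdr43 itself, the target, was measured at 82.3 and 78.2 FPKM in the shCtl libraries, against 21.2 and 20.7 after knockdown. Of the 595 genes whose loci overlapped a wide domain, 501 passed the filter on low values, and of those 301 (60.1%) were lower and 18 (3.59%) higher by limma at an adjusted p under 0.05. Over all 12452 genes tested, 42.7% were lower and 6.1% higher. The median log2 fold change was -0.57 for genes at wide domains, -0.43 for genes at the other peaks only (48.8% lower) and -0.39 for all genes. In the 4 comparisons of single libraries the median at wide domains went from -0.60 to -0.50.

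The level of the genes went with this difference. Tested genes at wide domains had a median of 31.0 FPKM in shCtl, against 9.05 for all genes. Within the highest of 5 equal bins of expression, 200 of 248 genes at wide domains (80.6%) were lower with a median of -0.74, and 78.4% of all genes of that bin with a median of -0.71. In the lower 4 bins, the medians from low to high were -0.33, -0.13, -0.39 and -0.42 at wide domains and -0.15, -0.24, -0.36 and -0.49 over all genes. The medians thus differed by under 0.1 in the upper 3 bins, while in the lowest bin genes at wide domains lay lower (24.4% of 45 called lower, against 13.6% of all) and in the next one higher. The presence of the domain after knockdown was set beside RNA at 1 gene per domain. Of genes with a domain in both shWDR43 lists 154 of 246 were lower and 7 higher, with a domain in 1 list 22 of 30 lower and 0 higher, and in neither 10 of 20 lower and 4 higher. Medians were -0.59, -0.66 and -0.52, at median shCtl levels of 38.1, 24.8 and 15.5 FPKM, and the difference between these groups was not tested.

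Scaling, the filter on low values and replicate number limit these calls. With libraries centred on their median, which moved the median of all genes from -0.39 to -0.06, 36.3% of genes at wide domains were lower and 9.38% higher, against 20.9% lower and 13.0% higher over all 12452 genes (2606 and 1615). With no filter on low values, 5.88% of 595 genes at wide domains were lower and 0.336% higher, and of all 38582 genes 633 were lower and 277 higher. With any of the 4 RNA libraries left out, limma called 0 genes, and 243 to 290 genes at wide domains were lower and 12 to 17 higher at an unadjusted p under 0.05.

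**Figure D5:**
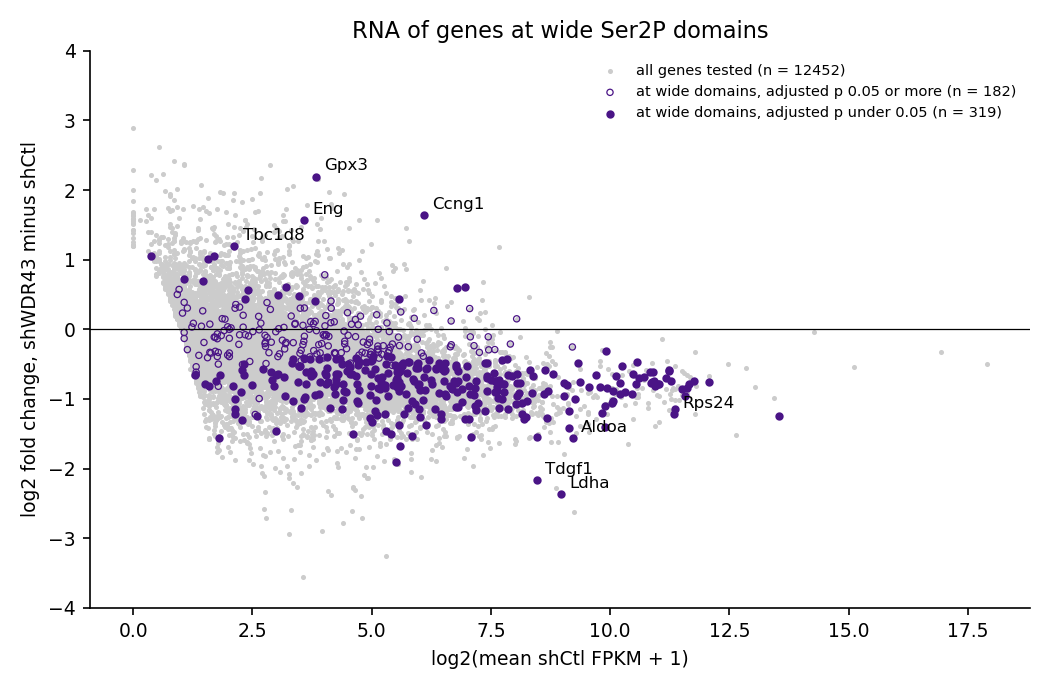
Log2 fold change of RNA, shWDR43 minus shCtl (vertical axis), against log2 of the mean shCtl FPKM plus 1 (horizontal axis). Grey points are all 12452 genes tested, and purple points the 501 at wide domains, filled where the adjusted p was under 0.05 (319 genes). Most filled points lie below 0, and Gpx3, Ccng1, Eng and Tbc1d8 lie above 1.

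Ribosomal protein genes were the largest list at wide domains. Drawn by symbol, with near relatives such as Rpl7l1 included, 39 of 84 overlapped a wide domain, 36 another peak only and 9 no shCtl-1 peak. All 38 tested at wide domains were lower, with a median of -0.79, and so were all 82 tested genes of the list, with a median of -0.83. Rps24, a small-subunit protein, stood at 2555 and 2645 FPKM in the shCtl libraries, against 1130 and 1107 after knockdown (log2 fold change -1.22 ± 0.09 SE). Rps28 stood at 2293 and 2543 FPKM against 1579 and 1631 (-0.59), and Rpl27a at 827 and 934 against 492 and 496 (-0.83). Rps3 (-0.48) and Rps19 (-0.46) fell least. In each of these genes both shWDR43 libraries were below both shCtl libraries. Counting was not stated to use strand, and ribosomal protein genes have many near-identical copies, so reads of these and of overlapping loci such as St5 with Rpl27a are uncertain. Of translation factors, 5 of 22 lay at wide domains and 3 were lower (median -0.53), against 20 of 22 over the whole list (median -0.84), with Eif5a at 891 and 940 FPKM against 430 and 368 (-1.20), while the elongation factor Eef2 (-0.25) and Eif4g2 (-0.11) did not pass.

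Of the pluripotency genes, 7 of 32 lay at wide domains, and 5 of these were lower and 0 higher by limma (median -0.93, against -0.79 and 26 lower over the whole list). Tdgf1, a Nodal co-receptor, fell from 354 and 354 FPKM to 87.0 and 70.3 (-2.16 ± 0.14, limma adjusted p = 0.000717), and its domain on chromosome 9 (110839306 to 110845512) was 6207 bp in shCtl-1, not listed in shCtl-2 and 3738 and 4152 bp in shWDR43. Utf1, whose domain was not listed after knockdown, fell from 258 and 323 FPKM to 128 and 109 (-1.28). Pou5f1, the factor Oct4, fell from 1038 and 1057 FPKM to 554 and 459 (-1.05), Fgf4 fell by 0.93 and Tet1 by 0.49. Nanog stood at 163 and 142 FPKM against 126 and 115 and did not pass (-0.33, limma adjusted p = 0.0652), nor did Tdh, threonine dehydrogenase (-0.21). All 3 glycolytic genes at wide domains were lower. Ldha fell from 475 and 524 FPKM to 102 and 90.7 (-2.36 ± 0.12), the largest fall of the 501 genes, Aldoa from 569 and 621 to 207 and 194 (-1.56 ± 0.11), and Pgam1 fell by 1.42. The whole list of 15 had 13 lower and a median of -1.34.

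Other lists were thinly represented. All 3 chaperone genes at wide domains (Hspd1, Hspa4 and Hspa9), all 3 nucleolar ones (Rrp1b, Nop56 and Nop2), all 5 splicing and hnRNP ones, all 5 cytoskeletal ones and all 3 chromatin regulators were lower. Over the whole lists, 21 of 24 chaperone, 24 of 25 nucleolar, 27 of 30 splicing, 13 of 21 cytoskeletal (with 2 higher) and 23 of 27 chromatin genes were lower. Hspd1, a mitochondrial chaperonin, fell by 1.40, and the nucleolar Rrp1b had a log2 fold change of -1.37. The splicing factor Srsf2 (-1.21), the beta tubulin Tubb5 (-1.18) and Hmgb1 (-1.55) lay in the same range. Polr2a, the largest subunit of Pol II, was the only gene of 24 in the Pol II machinery list at a wide domain and did not pass (0.12), while 14 of the 24 were lower. That 1 of 24 is close to the share over all genes tested, 501 of 12452. Among long noncoding RNAs and snoRNA hosts, 9 of 22 lay at wide domains, and 5 were lower and 1 higher of 8 tested, against 10 lower and 2 higher of 20 over the whole list. Malat1 stood at 128 and 87.9 FPKM against 55.3 and 68.3 (-0.78), while XLOC_011716, the row with most bases in the same domain, stood at 260 and 265 against 290 and 293 and did not pass (0.15). These rows thus disagreed, and whether both measure Malat1 was not tested, so its fall is uncertain. Neat1, the RNA scaffold of paraspeckles, was at 6.2 and 8.2 FPKM against 10.5 and 10.3 (0.49, limma adjusted p = 0.0419). None of the 65 replication-dependent histone genes lay at a wide domain, while 39 lay at another Ser2P peak. Over all 38582 genes 595 lay at a wide domain and 2926 at other peaks only. The 0 of 65 is thus near the share over all genes.

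Further large falls were at Tuba4a, an alpha tubulin (43.2 and 45.7 FPKM against 11.4 and 10.9, -1.90), Ccrn4l (-1.67), Fam60a (-1.55), Scd2 (-1.53) and Mir17hg, the host of a microRNA cluster (-1.50). At Scd2 lower RNA thus stood beside a Ser2P domain not listed after knockdown. The rises were fewer and at lower levels. Gpx3, an extracellular glutathione peroxidase, rose from 13.0 and 13.4 FPKM to 69.7 and 58.7 (2.19 ± 0.14, limma adjusted p = 0.000717), although its 4928 bp domain was listed in shCtl-1 alone. Ccng1, cyclin G1, a p53 target, rose from 77.3 and 57.6 to 220 and 201 FPKM (1.64), and its domain was 5141 and 5362 bp in shCtl and 3531 and 3825 bp in shWDR43. The other 3 p53 targets at wide domains, Gtse1 (0.27), Aen (0.25) and Sesn2 (0.21), did not pass, while over the whole list 11 of 19 were higher and 2 lower (median 0.67). Eng, endoglin, a TGF-beta co-receptor, rose from 10.3 and 11.7 to 34.7 and 34.2 FPKM (1.57), under a domain shared with Fpgs. Tbc1d8 rose from 3.9 and 2.8 to 10.2 and 7.7 FPKM (1.19) and AK078239 from 0.2 and 0.4 to 1.8 and 1.6 FPKM (1.06), both at domains with no shWDR43 Ser2P peak. AK078239 passed the filter on low values only through its shWDR43 values, so its rise is given as a description. Iffo1 (1.05), AK215842 (1.01), Tead3 (0.72), Nanos1 (0.69) and Trim11 (0.61) followed. AK078239 aside, of the genes called here at domains with no shWDR43 peak, Scd2 and Utf1 were lower, and Gpx3 and Tbc1d8 higher. These were picked by size of change or width. At 1 gene per such domain, 10 of 20 tested were lower and 4 higher. Utf1 was lower at the domain it shared with AK078239, and the rise of AK078239 there is limited by the filter.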

How the data were processed

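Peaks of 17 ChIP libraries and RNA of 4 libraries were used, 21 of 27 samples. The other 6 were not analysed here. Samples were grouped by title. The authors deposited 1 peak list per library on mm9, aligned with Bowtie2 per the submitters' processing notes, with a score per peak of at least 50. The sources used here do not give the score's definition, the caller's settings or the control, and ChIP depth is unknown. The authors deposited 1 value per gene and RNA library, read as FPKM from the use of Cufflinks and TopHat per the submitters' processing notes. The title names spike-in. Column totals split by group: libraries with the WDR43 hairpin had the lower ones, 687051 (shWDR43-1) and 681178 (shWDR43-2). Control libraries totalled 1015232 (shCtl-1) and 1040749 (shCtl-2). The 7225 rows without a name were left out of the 38582 used, and depth is unknown. Per the labels mRNA was isolated on beads.

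Overlap was 1 bp or more. Width in another list is that of the widest overlapping peak. Loci were taken from the deposited table, read as 0-based and printed 1-based. Strand came from the RefSeq promoter table (GRCm38.p6), matched by accession or symbol for 16046 of 20202 coding rows. Of 16021 neighbouring pairs, 99.5% kept their order or the next on both builds. Shares carry exact Clopper-Pearson 95% intervals covering counting error only. Genes whose mean FPKM was 1 or more entered limma 3.58.1 (R 4.3.3) as log2(FPKM + 1). The fit used the intensity trend, and calls had a Benjamini-Hochberg adjusted p under 0.05. Fold changes are on that scale, which understates changes of low genes. The fit was tested on simulated data. Named domains were the 15 widest, 3 on either side of the threshold, and the 5 widest without shWDR43 Ser2P or DMSO WDR43 peaks. Named genes were those with most bases there, the 10 largest falls and rises where neither shWDR43 library fell within the range of shCtl, the 2 highest and lowest of each list, and Wdr43, with some left out. Further genes (Malat1, Pou5f1, Fgf4, Tet1, Rps28, Rpl27a and loci sharing a named domain) were added after their values were seen. Members and lists were chosen with earlier results of these data known.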

Additional observations from a re-analysis of the deposited data

How the results depend on the processing

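Width limit: in the widest 194 peaks 68.6% had a shCtl-2 peak, and in the widest 777 81.7% a shWDR43-1 peak. Chosen in shWDR43-1 or shWDR43-2, 65.7% and 67.2% had a shCtl-2 peak, and 79.7% of those of shWDR43-2 held a 3′ end. With at least 50% of the domain covered, the shWDR43 shares were 75.3% and 76.8%. With peaks scored at or above their list's median, presence was 56.2% in shCtl-2, 64.9% and 62.4% in shWDR43 and 19.3% for WDR43 under DMSO.

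With no filter on low values 5.88% of 595 genes at wide domains were lower and 0.336% higher (all genes: 633 and 277), with a median of -0.47. With libraries centred, 36.3% were lower and 9.38% higher (2606 and 1615), with a median of -0.24. The cause was not tested beyond the change of scale and of genes tested. Leaving out each RNA library gave 0 to 0 calls in either direction, at wide domains and over all genes, with 1 residual degree of freedom.

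With the replicate block 64.1% were lower and 4.19% higher (5926 and 840 of all genes). The numbers were not shown to pair the libraries, as deviations correlated at 0.0504 in both pairs.

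After centring, Eef2 (0.0757), Eif4g2 (0.22), Tdh (0.12), Snhg7 (0.23) and St5 (0.29) changed sign. With each library left out in turn, Eif4g2 went from -0.25 to 0.0369, Snhg7 from -0.34 to 0.14, St5 from -0.18 to 0.11 and BC005764 from -0.0352 to 0.50. None of these 6 was called in the full fit. The unknown depth of the ChIP libraries limits every width and share.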
